A study of Arabidopsis thaliana with 4 samples.

Results

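Seedlings of Arabidopsis thaliana held on salt for 5 h were compared with seedlings held on salt for 2 h, across all genes of a 2-colour microarray. The comparison used the 2 arrays of 5 h and the 2 arrays of 2 h, which are all 4 arrays of the series. Both groups were wild type of the Col-0 ecotype, 14 d old, grown at 22 °C under short days of 8 h light and 16 h dark after 3 d of imbibition in cold and darkness. Intact seedlings were laid on paper soaked with NaCl at 300 mM, and their RNA was taken up in Trizol, with 0.2 µg used for labelling. On each of the 4 arrays the salt sample carried Cy5 and untreated seedlings (0 h) carried Cy3, with no dye swap. Each value is therefore a log2 ratio of salt over 0 h, and the comparison is the 5 h ratio minus the 2 h ratio. A dye bias that is fixed for a gene drops out of that difference. So does the 0 h sample if it was shared, since the labels number the salt samples and not the 0 h sample, which was counted as 1 control. The series' design text gives 2 biological replicates.

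High NaCl draws water out of plant cells and then loads them with sodium. Osmotic stress is sensed within minutes and starts calcium, reactive oxygen and hormone signals, and abscisic acid (ABA), which is made as water is lost, binds receptors that block PP2C phosphatases and so frees SnRK2 kinases to act on bZIP transcription factors. Genes for protective proteins, solutes and surface wax are known targets of that pathway, while growth and photosynthesis are known to be held back in salt.

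Median spot signals lay between 342 and 372 in Cy5 and between 252 and 282 in Cy3, and 70.5% to 72.4% of the 43803 spots passed the scanner software's test for a signal well above background. Taken over genes, which are no independent replicates, Pearson's r of the log2 ratios was 0.995 for the pair of 5 h arrays, 0.990 for the pair of 2 h arrays and 0.803 to 0.805 for pairs across times. Array-to-array differences had a robust SD (log2, from median absolute deviations) of 0.0732 for the 5 h pair and 0.0953 for the 2 h pair, against 0.435 to 0.444 across times. In the 0 h channel alone that spread was 0.0753 to 0.109 for the pairs across times and 0.0969 and 0.100 for the pairs within 5 h and within 2 h. All 4 arrays lay on 1 slide scanned in 1 run, with the 2 h arrays in the first and the second positions and the 5 h arrays in the third and the fourth. Position and duration therefore cannot be told apart, nor can duration of salt, time since transfer to paper and, unless sampling was matched, time of day. Seedlings moved to paper without NaCl were not analysed here. Both leaf and root transcripts were present: all 35 photosystem genes and 10 of 15 root markers were well above background in Cy5 on all 4 arrays.

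Between the earlier and the later salt sample most genes shifted, but few shifted far. Of 20410 genes tested, 6854 were higher at 5 h than at 2 h (33.6%) and 7940 were lower (38.9%), 72.5% in all, by limma's moderated test with Benjamini-Hochberg adjustment (called at an adjusted p under 0.05). At least 2-fold changes were found for 884 genes higher at 5 h (4.33%) and 701 lower (3.43%), and at least 4-fold changes for 124 higher (0.608%) and 29 lower (0.142%). Rises thus outnumbered falls among the large changes, which made 55.8% of the 2-fold changes rises. That split rested on the scale used: with the spread of the ratios made equal on all arrays (equal spread below) 612 genes were at least 2-fold higher and 813 lower (42.9% rises), and the ratios deposited by the authors gave 1158 higher and 1432 lower (44.7% rises). With equal spread several genes far above 0 h at both times read lower at 5 h, as given beside them. Other rises of such genes kept their direction but were smaller under some alternatives. The ratios themselves were wider at 5 h, with a spread of 0.692 and 0.700, than at 2 h, with 0.476 and 0.476 (robust SD, log2). The median difference of all genes was −0.03. Rose and fell refer below to 5 h relative to 2 h and are used for called genes, and each difference is given on the log2 scale ± limma's moderated SE (2 arrays per time). The 2 arrays of 5 h lay apart from the 2 arrays of 2 h in 17492 of the 20410 genes, among them all 14794 called. Counts of called genes in a list are to be read beside the shares of all genes, 33.6% higher and 38.9% lower. Where another setting moved the median of a gene list by over 1.5 times, its value follows the median, or the range over 16 alternatives where several did. The adjusted p of the 310 genes chosen by the naming rule lay between 1.14e-08 and 0.041.

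The large rises mostly came from genes near their 0 h level at 2 h. Genes at least 2-fold higher at 5 h had a median log2 ratio to 0 h of 1.74 at 5 h and 0.248 at 2 h. Genes at least 2-fold lower had a median of −1.19 at 5 h and 0.0361 at 2 h. For the 124 genes at least 4-fold higher the medians were 2.52 at 5 h and 0.0864 at 2 h, and for the 29 at least 4-fold lower they were −1.68 and 0.449. The genes were chosen by their 5 h minus 2 h difference, and the 2 ratios have the 0 h sample in common if it was shared. The pairs of medians therefore describe levels and are not independent of each other.

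**Figure D1:**
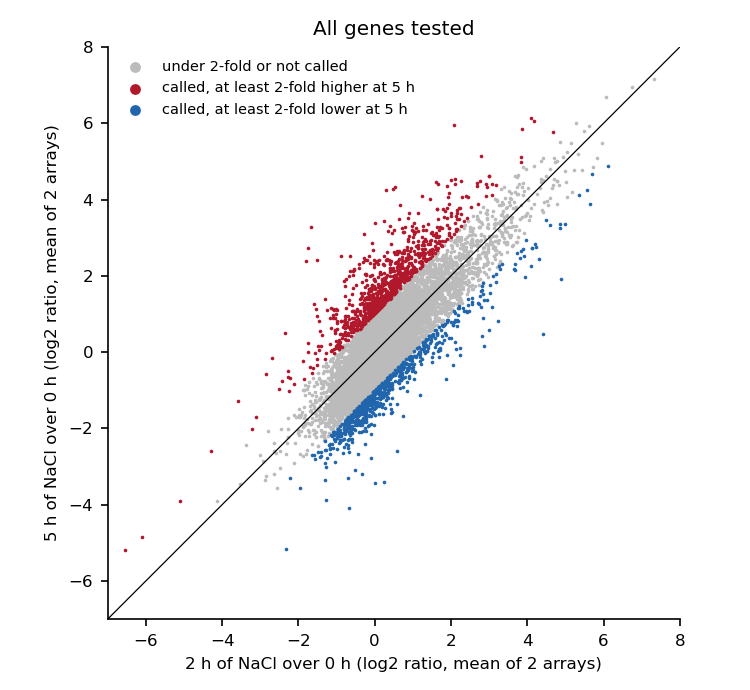
Mean log2 ratio over 0 h at 5 h (vertical axis) against that at 2 h (horizontal axis) for all genes tested, with the line of equality. Red points are the 884 genes called and at least 2-fold higher at 5 h, blue points the 701 at least 2-fold lower, and grey points the rest.

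The largest rise was that of LTP3, which encodes a lipid transfer protein of the cell wall. Its log2 ratios were 3.27 and 3.29 at 5 h, against −1.65 and −1.68 at 2 h. It was above its 0 h level at 5 h and below it at 2 h, a difference of 4.94 ± 0.05 (30.7-fold). LTP4, its close relative, had ratios of 2.73 and 2.73 at 5 h, against −1.83 and −1.69 at 2 h and rose by 4.49 ± 0.06, but the probes of so close a pair may share RNA, so the 2 genes are uncertain as single genes. SAG29, which encodes a sugar transporter of the SWEET family known from ageing leaves, had ratios of 2.35 and 2.42 at 5 h, against −1.79 and −1.82 at 2 h and rose by 4.19 ± 0.05. The same crossing of the 0 h level was seen for AT3G17520 (2.39 and 2.44 against −1.43 and −1.58) and for AT1G68570, named NPF3.1 of the nitrate and peptide transporter family (2.53 and 2.51 against −0.93 and −0.84).

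GLYI7, named for glyoxalase I, the enzyme class that detoxifies methylglyoxal, was high at both times and rose further, with 5.98 and 5.94 at 5 h, against 2.05 and 2.11 at 2 h (3.88 ± 0.05). Among the other 9 of the 15 leading rises were the late embryogenesis gene LEA7 (3.38 ± 0.06), the dehydrin RAB18 (3.16 ± 0.05), the beta-glucosidase gene DIN2 (3.39 ± 0.05) and BCAT2, which encodes a branched-chain aminotransferase (3.18 ± 0.05). The remaining 5 have no name in the gene table used. AT3G59930 and AT5G33355 had nearly the same ratios, 4.23 and 4.27 at 5 h, against 0.31 and 0.28 at 2 h for AT3G59930, and 4.34 and 4.29 at 5 h, against 0.55 and 0.52 at 2 h for AT5G33355. Whether the probes of AT3G59930 and AT5G33355 share RNA was not tested. AT3G02480 rose by 3.79 ± 0.05, AT1G09500 by 3.18 ± 0.05 and AT5G39520 by 2.94 ± 0.05.

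The largest fall was that of CYP82G1, the cytochrome P450 that makes the volatile homoterpene TMTT. It had ratios of 0.42 and 0.53 at 5 h, against 4.47 and 4.34 at 2 h and fell by 3.93 ± 0.06 (15.2-fold). TPS04, the geranyllinalool synthase that acts just before it, had 1.88 and 1.95 at 5 h, against 5.03 and 4.73 at 2 h and fell by 2.97 ± 0.09. At 5 h CYP82G1 was close to its 0 h level, whereas both genes were far above that level at 2 h. ADS1, a fatty acid desaturase gene, had −3.38 and −3.42 at 5 h, against 0.18 and 0.30 at 2 h (−3.64 ± 0.06), far below its 0 h level at 5 h and slightly above it at 2 h. PCC1, a gene linked to defence and flowering, had −4.24 and −3.92 at 5 h, against −0.65 and −0.67 at 2 h (10.7-fold lower).

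Genes of wall growth and of phosphate supply also stood among the leading falls. The expansin gene EXPA8 had ratios of −5.13 and −5.21 at 5 h, against −2.33 and −2.34 at 2 h, and XTH31, which encodes an enzyme of the xyloglucan group that cuts and rejoins wall polymers, had −3.33 and −3.29 at 5 h, against −0.76 and −0.65 at 2 h. GASA6, of a gibberellin-regulated peptide family, fell by 2.61 ± 0.05 and PAP14, a purple acid phosphatase gene, by 2.87 ± 0.05. AT5G02760, named APD7 of the clade D PP2C phosphatases, fell by 2.67 ± 0.05, and AT5G10760, named AED1 for its dependence on the defence regulator EDS1, by 2.57 ± 0.08. AT5G03350 (−3.44 ± 0.06), AT2G41090 (−3.17 ± 0.06), AT4G10390 (−2.70 ± 0.05), AT5G63180 (−2.56 ± 0.06) and AT2G25510 (−2.42 ± 0.05) have no name in the table.

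**Figure D2:**
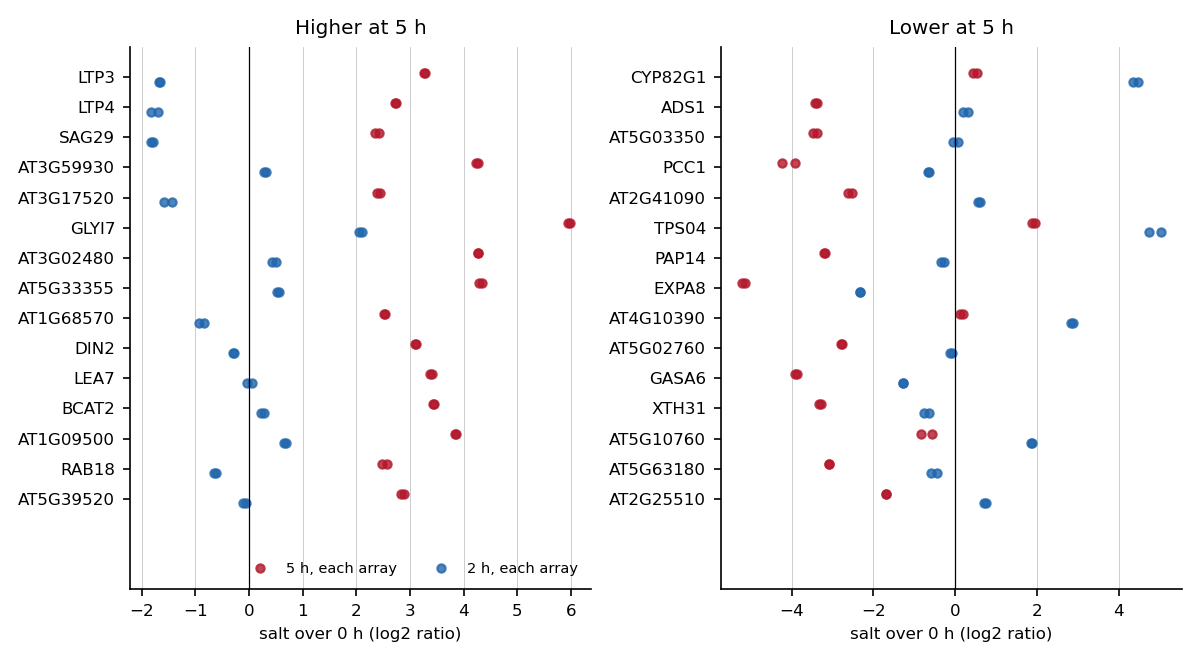
Log2 ratio over 0 h on each array for the 15 genes with the largest rise (left) and the 15 with the largest fall (right), 5 h in red above 2 h in blue. The genes were chosen by the size of their difference, which sets the gap between the times, and the 2 arrays of a time lie close together.

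Some genes were not well above background in Cy5 on either array of a time, and for their Cy5 signal only a bound can be given. It sets the mean of the bright time against the dim probe's own signal or, where that was lower, the lowest signal counted as well above background, in Cy5 after normalization and with no dye swap to balance it. The Cy5 signal of AT3G54940 was at least 5.48-fold higher at 5 h, that of AT1G27461 at least 4.52-fold, AT2G28490 at least 4.14-fold, PAP85 (a vicilin-like seed storage protein gene) at least 3.8-fold and FPF1 (a flowering promoting factor) at least 3.56-fold. The measured differences of the log2 ratios were 2.54 ± 0.05, 2.06 ± 0.06, 2.32 ± 0.07, 1.98 ± 0.10 and 1.78 ± 0.05 for these genes. In the other direction, the Cy5 signal of AT1G13650 was at least 2.96-fold lower at 5 h, that of the receptor-like protein gene RLP38 at least 2.86-fold, 4CL8 at least 2.7-fold, AT4G12870 at least 2.39-fold and PR1, a marker of salicylic acid defence, at least 2.37-fold. Their measured differences were −1.59 ± 0.09, −1.42 ± 0.08, −1.43 ± 0.08, −1.15 ± 0.05 and −1.28 ± 0.10. The bounds are no bounds on the ratios to 0 h: for AT1G27461, FPF1, RLP38, 4CL8 and AT4G12870 the measured ratios differed by less than the Cy5 bound.

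**Figure D3:**
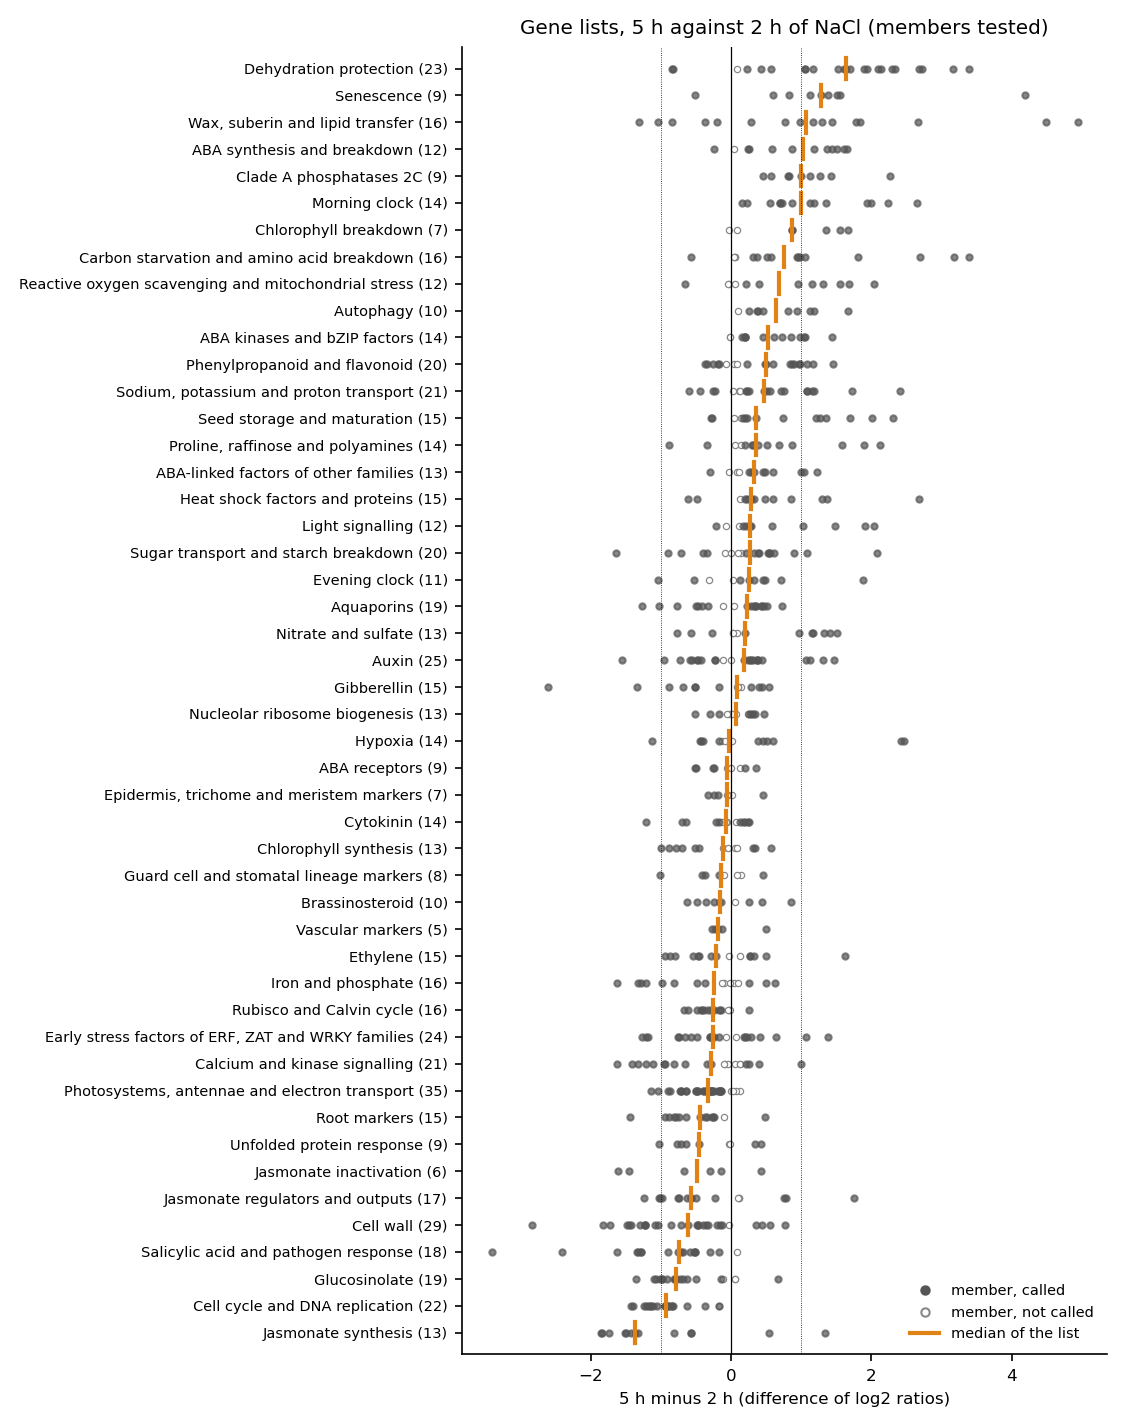
Differences of log2 ratios, 5 h minus 2 h, for each member of each gene list with at least 5 genes tested, with the number tested in brackets. Filled points were called, open points were not, orange bars are list medians and dotted lines mark 2-fold. Dehydration protection stands highest (median 1.63) and jasmonate synthesis lowest (median −1.37).

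Most genes of ABA metabolism and signalling rose between 2 h and 5 h, the receptor genes being the exception. Of 12 genes of ABA synthesis and breakdown, 10 rose, 6 of them at least 2-fold, and 1 fell (median difference 1.03, against −0.03 for all genes). NCED3, the committed and stress-induced step of synthesis, was already high at 2 h, with 3.82 and 3.89 at 5 h, against 3.38 and 3.16 at 2 h. It rose by 0.59 ± 0.08, but its difference was −0.37 with equal spread. Enzymes before and after that step stood lower at 2 h: ABA1, the zeaxanthin epoxidase, had 1.47 and 1.47 at 5 h, against 0.23 and 0.34 at 2 h (1.18 ± 0.06), and AAO3, the aldehyde oxidase of the last step, had 2.13 and 2.16 at 5 h, against 0.58 and 0.70 at 2 h (1.5 ± 0.06). NCED9, a family member known from seeds, rose by 1.44 ± 0.07, and ABA3, which makes the cofactor of AAO3, by 0.87 ± 0.05. ABA2 alone fell, by 0.24 ± 0.05, and was not called with equal spread. The breakdown side rose as well. CYP707A2, an ABA hydroxylase known from seeds, had 0.62 and 0.62 at 5 h, against −0.99 and −1.0 at 2 h (1.62 ± 0.05), CYP707A4 rose by 1.65 ± 0.06 and CYP707A1 by 1.37 ± 0.05. CYP707A3, which stood at 2.94 at 5 h and 2.69 at 2 h over 0 h, rose by 0.25 ± 0.07, but its difference was −0.51 with equal spread, and the call was not kept by the Feature Extraction or the deposited ratios or without replicate 2 of 5 h.

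Of 9 ABA receptor genes, 2 rose and 4 fell, beside 33.6% and 38.9% of all genes, and none changed by as much as 2-fold. Their median was −0.06 (−0.22 to 0.02 over the alternatives, above 0 by the Feature Extraction ratio and without replicate 2 of 5 h). PYL4 had −0.87 and −0.97 at 5 h, against −0.39 and −0.41 at 2 h and fell by 0.52 ± 0.05, PYL9 fell by 0.51 ± 0.05, and PYR1 rose by 0.36 ± 0.05. The clade A PP2C phosphatases, which restrain the pathway and are known to be induced by it, rose in 9 of 9 cases (median 0.99, 0.38 with equal spread). HAI3 had 2.05 and 2.02 at 5 h, against −0.23 and −0.22 at 2 h, a rise of 2.26 ± 0.05. HAI1 and HAB1 rose by 1.27 ± 0.07 and 0.99 ± 0.05, as low as 0.43 and 0.38 over the alternatives. AHG1, not well above background at 2 h, had a Cy5 signal at least 2.53-fold higher. The HAI genes are close copies and uncertain as single genes.

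Downstream, 12 of 14 genes for kinases, bZIP factors and their partners rose and 0 fell (median 0.53, 0.23 with equal spread). ABF4, ABF2 and ABF3, the bZIP factors that drive ABA-responsive promoters in leaves, rose by 1.44 ± 0.06, 1.05 ± 0.05 and 1.03 ± 0.05. ABF4 had 1.77 and 1.88 at 5 h, against 0.35 and 0.42 at 2 h. SNRK2.6, the guard cell kinase also called OST1, had 0.94 and 0.94 at 5 h, against −0.01 and −0.06 at 2 h (0.98 ± 0.05). The ABA-induced kinase genes MAPKKK17 and MAPKKK19 were high at both times and were not called between them (−0.01 ± 0.06 and −0.02 ± 0.07), with 1 of 2 probes of MAPKKK19 opposite to its summary. MAPKKK18 stood at 5.23 at 5 h and 5.04 at 2 h and rose by 0.20 ± 0.06, a call not kept under 6 of the alternatives, among them leaving out replicate 2 of 5 h or replicate 1 of 2 h. With equal spread all 3 were lower at 5 h, with −0.92 for MAPKKK17, −1.18 for MAPKKK19 and −1.19 for MAPKKK18. Among 13 ABA-linked factors of the HD-Zip, MYB, NF-Y and NAC families 9 rose and 1 fell (median 0.32, −0.62 with equal spread). HB7 and HB12, HD-Zip factors that respond to ABA, rose by 1.22 ± 0.05 and 1.04 ± 0.05, as low as 0.83 and 0.30 over the alternatives. MYB2 rose by 1.0 ± 0.09, and MYB44 fell by 0.30 ± 0.05.

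Genes for protection against drying held the highest median of the lists examined, except with Cy5 alone. Of 23 dehydration protection genes 20 rose, 17 at least 2-fold, and 2 fell (median 1.63, 0.89 with equal spread and 0.92 with Cy5 alone). Their median ratio to 0 h was 2.97 at 5 h and 1.57 at 2 h. LEA7 had 3.38 and 3.42 at 5 h, against −0.04 and 0.07 at 2 h (10.4-fold higher). RAB18, a dehydrin gene used as an ABA reporter, had 2.57 and 2.48 at 5 h, against −0.62 and −0.66 at 2 h, and LEA18, of the late embryogenesis group, had 2.18 and 2.19 at 5 h, against −0.52 and −0.55 at 2 h. At 2 h LEA7 stood at its 0 h level and the other two stood below it.

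A further set was induced by 2 h and rose again. RD20, a caleosin, had 6.06 and 6.05 at 5 h, against 4.19 and 4.15 at 2 h (1.89 ± 0.05), KIN1, a small hydrophilic protein gene of cold and drought, had 4.37 and 4.43 at 5 h, against 2.11 and 2.11 at 2 h (2.29 ± 0.05), and COR15A, which protects chloroplast membranes, had 3.29 and 3.32 at 5 h, against 1.02 and 0.92 at 2 h (2.34 ± 0.05). All 3 were above 0 h at both times. Over the alternatives their rises were as low as 0.53 for RD20, 0.66 for KIN1 and 1.16 for COR15A. RD29B, whose promoter is a classic ABA target, was below 0 h at 2 h and spread more between replicates, with 2.3 and 1.68 at 5 h, against −0.24 and −1.12 at 2 h (2.67 ± 0.28). RD29A spread likewise, with 3.34 and 3.04 at 5 h, against 2.54 and 1.73 at 2 h (1.05 ± 0.23), and was not called by the Feature Extraction ratio, the deposited log2 table or with equal spread. The dehydrin ERD10 was high at both times and not called (0.09 ± 0.05), but its difference was −0.84 with equal spread. Both falls were of genes that had been high at 2 h: ERD7 had 2.76 and 2.78 at 5 h, against 3.5 and 3.71 at 2 h and HVA22D, an ABA-induced membrane trafficking gene, had 2.91 and 2.88 at 5 h, against 3.74 and 3.70 at 2 h.

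Several seed genes rose, some of them while far below their 0 h level. Of 15 seed storage and maturation genes tested, 11 rose and 2 fell (median 0.35, 0.19 to 1.28 over the alternatives). Their median ratio to 0 h was −1.22 at 5 h and −1.34 at 2 h. In Cy5, 5 of the 15 were not well above background at 1 time and 2 at both times. Among the rises these were OLEO1, OLEO2, PER1 and FUS3 at 2 h and SESA2 at both times, and among the falls SESA1 at 5 h. For FUS3 1 of 2 probes went the other way. EM1 and EM6, late embryogenesis genes that ABI5 controls, rose by 2.31 ± 0.12 and 2.01 ± 0.05, EM6 with 1.01 and 0.98 at 5 h, against −1.02 and −1.0 at 2 h. CRU3 and CRA1, seed storage globulin genes, rose by 1.35 ± 0.11 and 1.27 ± 0.07 and stayed far below 0 h, CRU3 with −5.21 and −5.18 at 5 h, against −6.36 and −6.73 at 2 h and CRA1 with −4.81 and −4.86 at 5 h, against −6.01 and −6.19 at 2 h. PER1, a seed peroxiredoxin, and OLEO2, an oil body protein gene, were not well above background at 2 h and had Cy5 signals at least 3.27-fold and 2.14-fold higher at 5 h (differences of the log2 ratios 1.69 ± 0.05 and 1.22 ± 0.06).

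Most surface lipid genes rose, and the falls were of suberin genes. Of 16 genes for wax, suberin and lipid transfer 11 rose, 8 at least 2-fold, and 5 fell (median 1.07, 0.68 with equal spread). CER1, which makes the alkanes of leaf wax, had 1.89 and 1.96 at 5 h, against −0.74 and −0.74 at 2 h (2.67 ± 0.05), and its partner CER3 had 3.2 and 3.19 at 5 h, against 1.35 and 1.36 at 2 h (1.84 ± 0.05). KCS2 and CUT1, which make the very long chain fatty acids of such polymers and waxes, rose by 1.44 ± 0.05 and 1.16 ± 0.05, WSD1, which makes wax esters, by 1.3 ± 0.05, and LTP2 by 1.77 ± 0.05. The 5 falls were all of genes that build suberin, the barrier polymer of root endodermis and periderm: CYP86A1 with −1.48 and −1.5 at 5 h, against −0.17 and −0.17 at 2 h (−1.32 ± 0.05), CYP86B1 (−1.04 ± 0.07), FAR5 (−0.84 ± 0.05), GPAT5 (−0.37 ± 0.05) and ASFT (−0.21 ± 0.05, not called with equal spread, with median centring or without replicate 2 of 5 h). Root markers moved with them: 13 of 15 were lower at 5 h, and their median ratio was −0.94 to −0.83 on the 5 h arrays and −0.32 to −0.29 on the 2 h arrays. The part of those markers in the suberin falls was not tested, and in whole seedlings fewer cells of a type and less RNA per cell cannot be told apart.

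Solute and transport genes rose next to the protective ones. P5CS1 and P5CS2, the enzymes that start proline synthesis, had 2.01 and 2.09 at 5 h, against 0.17 and 0.14 at 2 h for P5CS1 and 1.91 and 1.89 at 5 h, against −0.29 and −0.16 at 2 h for P5CS2, 3.71-fold and 4.34-fold higher at 5 h. Both were near 0 h at 2 h. ADC2, which begins polyamine synthesis, rose by 1.58 ± 0.06, while ERD5, the proline dehydrogenase that breaks proline down, fell by 0.89 ± 0.05, with 1.1 and 1.14 at 5 h, against 2.00 and 2.01 at 2 h. In all 10 of 14 genes of proline, raffinose and polyamines rose and 2 fell (median 0.35, 0.22 with equal spread).

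Of 21 genes of sodium, potassium and proton transport 14 rose, 6 at least 2-fold, and 4 fell (median 0.46). Vacuolar carriers were among the larger rises. CAX3, a calcium and proton exchanger, had 2.80 and 2.88 at 5 h, against 0.42 and 0.44 at 2 h (2.41 ± 0.05), CAX1 rose by 1.72 ± 0.05, and the sodium and potassium exchangers NHX1 and NHX2 rose by 1.08 ± 0.05 and 1.08 ± 0.06. HKT1, which retrieves sodium from the xylem sap, rose by 0.75 ± 0.06. SOS1, the plasma membrane exchanger that expels sodium, was called with Cy5 alone but not otherwise, with 0.14 and 0.24 at 5 h, against 0.10 and 0.05 at 2 h (0.12 ± 0.06). HAK5, a high-affinity potassium uptake gene of roots, fell by 0.60 ± 0.05. Aquaporin genes went both ways, 10 of 19 up and 7 down, and the sign of their median (0.23) turned with median centring, equal spread or Cy5 alone (−0.11 to −0.05). TIP1;1, a tonoplast water channel, rose by 0.73 ± 0.05 and TIP4;1 fell by 1.27 ± 0.05. PIP2;3 fell by 1.02 ± 0.05, though it is a close copy of PIP2;2 and uncertain as a single gene.

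Enzymes against reactive oxygen were higher at 5 h for 8 of 12 and lower for 1 (median 0.68, 0.40 with equal spread). CAT2, the leaf catalase of photorespiration, had 1.74 and 1.81 at 5 h, against 0.07 and 0.11 at 2 h (1.69 ± 0.05). GSTU19, a glutathione transferase gene, rose by 2.04 ± 0.07. CSD2, the plastid copper-zinc superoxide dismutase, was far below 0 h at 2 h and less so at 5 h, with −0.67 and −0.68 at 5 h, against −2.21 and −2.24 at 2 h (1.55 ± 0.05), and the cytosolic CSD1 rose by 1.15 ± 0.05. FSD1, the iron form of that enzyme in plastids, fell by 0.65 ± 0.05. Among 15 heat shock genes 11 rose and 2 fell (median 0.29, 0.56 by the Feature Extraction ratio and 0.54 by the deposited ratios), led by the factor gene HSFA6A with 1.13 and 1.14 at 5 h, against −1.58 and −1.51 at 2 h (2.68 ± 0.05), HSP90.1 (1.36 ± 0.05) and HSP70 (1.29 ± 0.05). Genes of the unfolded protein response of the endoplasmic reticulum, chaperones and transcription factors, mostly did not follow. Of 9 genes 2 rose and 5 fell (median −0.46, −0.71 by the Feature Extraction ratio and −0.73 by the deposited ratios). The calnexin gene CNX1 was lower by 1.02 ± 0.05 and SDF2 by 0.77 ± 0.05. The rises were the factor gene BZIP17, by 0.43, and the chaperone gene BIP3, by 0.34. BIP3 was not called by the Feature Extraction or the deposited ratios and was −0.10 with equal spread.

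Many genes of early stress signalling were lower at 5 h than at 2 h while still above 0 h. Of 24 early stress factors of the ERF, ZAT and WRKY families 14 fell and 8 rose (median −0.26, −1.08 with equal spread). WRKY18, a regulator of defence and ABA responses, had 4.82 and 4.96 at 5 h, against 6.12 and 6.10 at 2 h (−1.22 ± 0.06), DDF2 of the DREB group had 1.78 and 1.73 at 5 h, against 3.07 and 3.00 at 2 h (−1.28 ± 0.05) and ERF5 fell by 1.18 ± 0.07. These stayed well above 0 h at 5 h. RAP2.6L and CBF3, a further ERF factor and a cold-response factor, rose by 1.38 ± 0.05 and 1.06 ± 0.05, as low as 0.75 and 0.43 over the alternatives. RAP2.6, which stood at 6.70 at 5 h and 6.05 at 2 h over 0 h, rose by 0.64 ± 0.05, but its difference was −1.07 with equal spread.

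Among calcium sensors and signalling kinases 11 of 21 fell and 4 rose (median −0.28, −1.01 to −0.15 over the alternatives). CML39, a calmodulin-like protein gene, had 3.32 and 3.37 at 5 h, against 5.03 and 4.93 at 2 h (−1.63 ± 0.06). TCH3, the touch-induced calmodulin-like gene, had 2.69 and 2.74 at 5 h, against 4.12 and 4.13 at 2 h, and CML38 fell by 1.33 ± 0.06. MPK3, a kinase of stress and immune signalling, had 0.21 and 0.20 at 5 h, against 1.1 and 1.2 at 2 h (−0.94 ± 0.05), and RBOHD, the oxidase that makes signalling superoxide, had 0.31 and 0.29 at 5 h, against 1.22 and 1.01 at 2 h (−0.81 ± 0.07). Both had come close to 0 h by 5 h. OXI1, a kinase linked to oxidative signals, went up by 0.99 ± 0.06 (as low as 0.24 over the alternatives).

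Jasmonate synthesis had the lowest median of the lists. Of 13 genes 11 fell, 8 at least 2-fold, and 2 rose (median −1.37, −2.13 with equal spread). The median ratio to 0 h was 2.16 at 5 h and 3.03 at 2 h. AOC1, an allene oxide cyclase, had 2.44 and 2.45 at 5 h, against 4.30 and 4.31 at 2 h (−1.86 ± 0.05), OPR3, the reductase of the peroxisomal branch, had 2.31 and 2.22 at 5 h, against 4.1 and 4.11 at 2 h (−1.84 ± 0.05), and LOX3, a lipoxygenase of the first step, had 3.91 and 3.87 at 5 h, against 5.71 and 5.57 at 2 h (−1.75 ± 0.06). All remained above 0 h at 5 h. The rises were ACX1, an acyl-CoA oxidase of the last steps (1.33 ± 0.05), and LOX2, a leaf lipoxygenase (0.54 ± 0.05), for which 2 of 4 probes went the other way, the mean of its probes gave −0.01 and the call was not kept with equal spread.

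JAR1, which joins jasmonate to isoleucine to form the active hormone, fell by 1.33 ± 0.06. It is counted among the synthesis genes above. The steps after synthesis moved less uniformly. Among 6 inactivation genes 5 fell and 1 rose (median −0.48, −1.96 with equal spread), CYP94B1 with 3.22 and 3.28 at 5 h, against 4.89 and 4.85 at 2 h (−1.62 ± 0.05) and CYP94B3, far above 0 h at both times, with 7.13 and 7.22 at 5 h, against 7.29 and 7.35 at 2 h (−0.15 ± 0.06, a call not kept under 5 of the alternatives, among them leaving out replicate 1 of 5 h or replicate 2 of 2 h). Of 17 regulators and outputs 11 fell and 3 rose (median −0.57, −1.44 with equal spread). The repressor genes JAZ6 and JAZ10 fell by 1.02 ± 0.05 and 0.99 ± 0.05, while JAZ7, JAZ8 and JAZ12 were not called (0.11 ± 0.05, 0.11 ± 0.06 and 0.10 ± 0.05), though all 3 were lower at 5 h with equal spread. JAZ genes are close in sequence and uncertain as single genes. Outputs went both ways. TAT3, a tyrosine aminotransferase gene, had 4.09 and 4.13 at 5 h, against 5.29 and 5.42 at 2 h (−1.24 ± 0.06), and PDF1.2, a defensin gene with close copies, fell by 1.03 ± 0.05. CORI3, a tyrosine aminotransferase-like gene, had 2.14 and 2.15 at 5 h, against 0.40 and 0.38 at 2 h (1.75 ± 0.05) and VSP2, a vegetative storage protein gene, rose by 0.79 ± 0.06.

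Salicylic acid and pathogen genes fell in 17 of 18 cases, 7 at least 2-fold, and rose in 0 (median −0.74, −1.18 with equal spread). The median ratio to 0 h was 0.14 at 5 h and 1.23 at 2 h. PR2, a secreted glucanase, had 0.59 and 0.59 at 5 h, against 3.04 and 2.97 at 2 h (−2.41 ± 0.05), PAD3, which makes camalexin, had 0.34 and 0.41 at 5 h, against 1.96 and 2.04 at 2 h (−1.63 ± 0.06), and EDS1, an immune regulator, had −0.40 and −0.54 at 5 h, against 0.91 and 0.84 at 2 h (−1.34 ± 0.06). EDS1 was thus below 0 h at 5 h and above it at 2 h. BAP1 was not called (0.08 ± 0.09), except with equal spread or without replicate 1 of 2 h. Of 15 ethylene genes 8 fell and 5 rose (median −0.22, −0.54 with equal spread). ACS2, which makes the ethylene precursor, had 4.58 and 4.64 at 5 h, against 3.03 and 2.96 at 2 h (1.62 ± 0.05, as low as 0.60 over the alternatives). The oxidase genes of the next step, ACO1 and ACO4, fell by 0.95 ± 0.05 and 0.87 ± 0.05.

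**Figure D4:**
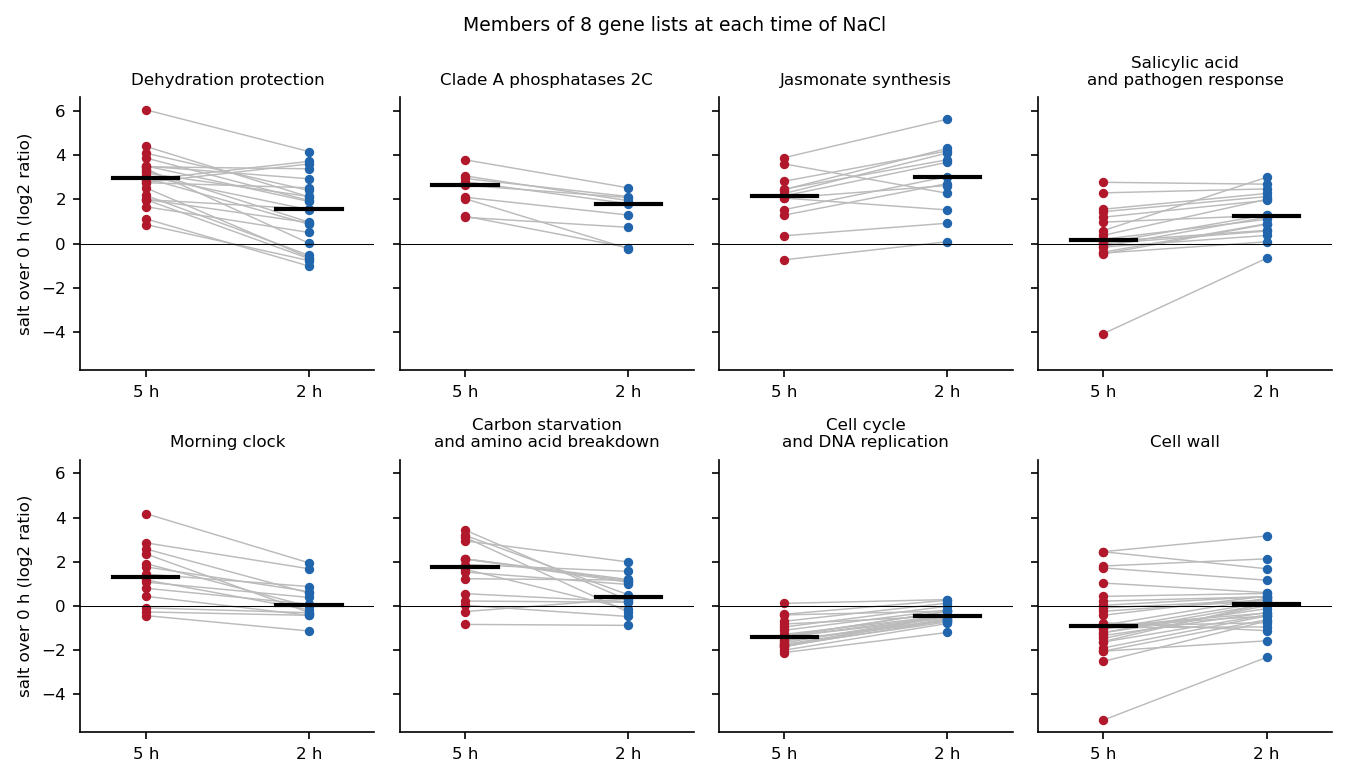
Log2 ratios over 0 h of each member of 8 gene lists, mean of 2 arrays, at 5 h (red, left) and 2 h (blue, right), joined by lines, with list medians as black bars. The medians of dehydration protection were 2.97 at 5 h and 1.57 at 2 h, those of jasmonate synthesis 2.16 at 5 h and 3.03 at 2 h and those of the cell cycle −1.41 at 5 h and −0.45 at 2 h.

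Most genes of senescence, chlorophyll breakdown and carbon starvation rose. Of 9 senescence genes 8 rose, 6 at least 2-fold, and 1 fell (median 1.29, 0.51 with equal spread). NAP and ORE1, NAC factors that promote leaf ageing, had 3.77 and 3.78 at 5 h, against 2.24 and 2.19 at 2 h for NAP and 4.30 and 4.34 at 5 h, against 2.95 and 2.93 at 2 h for ORE1, rises of 1.56 ± 0.05 and 1.39 ± 0.05. Over the alternatives these rises were as low as 0.76 for NAP and 0.42 for ORE1. VNI2, a NAC factor that restrains ageing, rose by 1.5 ± 0.06, and JUB1, another such factor, fell by 0.51 ± 0.05. Of 7 chlorophyll breakdown genes 5 rose and 0 fell (median 0.87, 0.48 with equal spread): NYE2, a magnesium dechelatase gene also called SGR2, by 1.66 ± 0.06, PAO, which opens the chlorophyll ring, by 1.56 ± 0.05, and NYC1, a chlorophyll b reductase gene, by 1.36 ± 0.05. PAO had 1.85 and 1.85 at 5 h, against 0.24 and 0.34 at 2 h.

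Of 16 genes of carbon starvation and amino acid breakdown 12 rose and 1 fell (median 0.75, 0.40 with equal spread). DIN2 had 3.1 and 3.11 at 5 h, against −0.27 and −0.30 at 2 h (10.5-fold higher). BCAT2 had 3.44 and 3.43 at 5 h, against 0.22 and 0.29 at 2 h, LKR, which starts lysine breakdown, had 3.17 and 3.21 at 5 h, against 0.51 and 0.50 at 2 h (2.69 ± 0.05), and IVD, which oxidises the products of branched-chain amino acids, rose by 1.8 ± 0.05. At 2 h all 4 had lain close to their 0 h level. DIN3, a subunit gene of the branched-chain ketoacid dehydrogenase, fell by 0.58 ± 0.06. Autophagy genes were higher at 5 h for 9 of 10 and lower for 0 (median 0.64), with ATG8H, an autophagosome protein gene, at 3.19 and 3.07 at 5 h, against 1.43 and 1.5 at 2 h (1.66 ± 0.06), ATG8E at 1.18 ± 0.05 and ATG8B at 1.12 ± 0.05 above 2 h.

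Among 20 genes of sugar transport and starch breakdown 11 rose and 5 fell (median 0.27, −0.06 with equal spread). SWEET4, a sugar exporter gene, had 2.40 and 2.43 at 5 h, against 0.33 and 0.34 at 2 h (2.08 ± 0.05), and AMY1, a secreted amylase gene, rose by 1.08 ± 0.05. ERD6, a sugar carrier gene induced by drying, had 0.01 and 0.05 at 5 h, against 1.70 and 1.65 at 2 h (−1.64 ± 0.05), and the plastid starch enzyme genes DPE1 and SEX4 fell by 0.90 ± 0.05 and 0.71 ± 0.05.

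Photosynthesis genes fell in most cases. Of 35 genes of the photosystems, antennae and electron transport 31 fell and 0 rose, with 2 falls of at least 2-fold (median −0.33, −0.73 with median centring). The list stood at −0.36 at 5 h and 0.04 at 2 h over 0 h. LHCB2.3, an antenna protein gene, had −2.08 and −2.08 at 5 h, against −0.99 and −0.89 at 2 h (−1.14 ± 0.05), LHCB6 had −0.83 and −0.85 at 5 h, against 0.21 and 0.20 at 2 h (−1.04 ± 0.05) and LHCB3 fell by 0.90 ± 0.05. Of 16 Rubisco and Calvin cycle genes 11 fell and 1 rose (median −0.26, −0.56 with median centring and −0.44 with the mean of probes), HCEF1, a fructose bisphosphatase gene, by 0.67 ± 0.05. GAPA was the rise, at 0.26 ± 0.06, but its difference was −0.11 with median centring and −0.0838 with Cy5 alone, and the mean of its probes was not called.

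Chlorophyll synthesis went both ways, with 6 of 13 genes down and 3 up, beside 38.9% and 33.6% of all genes (median −0.11, −0.37 to 0.02 over the alternatives). The reductase genes of the light-driven step all fell: PORC by 1.01 ± 0.06, PORA by 0.89 ± 0.06 and PORB by 0.70 ± 0.05. GUN5, a subunit gene of the magnesium chelatase, rose by 0.57 ± 0.05. Light signalling genes were higher at 5 h for 9 of 12 and lower for 1 (median 0.28, 0.17 by the deposited ratios). ELIP1 and ELIP2, early light-induced proteins that bind freed pigment, had 2.65 and 2.67 at 5 h, against 0.67 and 0.59 at 2 h for ELIP1 and 3.80 and 3.78 at 5 h, against 1.86 and 1.91 at 2 h for ELIP2. The bZIP factors HYH and HY5, which promote light responses, rose by 1.47 ± 0.06 and 1.02 ± 0.06, HY5 with 1.09 and 1.0 at 5 h, against 0.00 and 0.05 at 2 h.

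Genes of cell division fell almost without exception. Of 22 cell cycle and DNA replication genes 21 fell, 9 at least 2-fold, 0 rose and CYCD2;1 was not called, though it was under 5 of the alternatives (median −0.93). Their median ratio to 0 h was −1.41 at 5 h and −0.45 at 2 h. CYCB1;4, a mitotic cyclin gene, had −1.88 and −1.79 at 5 h, against −0.42 and −0.41 at 2 h (−1.42 ± 0.05), MCM7, of the helicase that opens replication origins, had −1.84 and −1.87 at 5 h, against −0.42 and −0.50 at 2 h (−1.39 ± 0.05), and PCNA1, the sliding clamp gene, had −1.68 and −1.67 at 5 h, against −0.47 and −0.41 at 2 h (−1.24 ± 0.05). CYCD3;1, a cyclin gene of entry into the cycle, fell by 0.37 ± 0.06. Of 4 cell cycle inhibitor genes 3 rose and 0 fell: KRP1 with 0.17 and 0.20 at 5 h, against −0.79 and −0.81 at 2 h (0.98 ± 0.05), SMR1 (0.85 ± 0.06) and KRP2 (0.51 ± 0.06).

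Cell wall genes fell in 24 of 29 cases, 12 at least 2-fold, and rose in 4 (median −0.61). EXPA11, an expansin gene, had −2.53 and −2.50 at 5 h, against −0.67 and −0.71 at 2 h (−1.83 ± 0.05), XTH4 had −1.64 and −1.59 at 5 h, against 0.05 and 0.19 at 2 h (−1.73 ± 0.06), and the fasciclin-like gene FLA8 had −1.48 and −1.48 at 5 h, against 0.01 and 0.01 at 2 h (−1.49 ± 0.05). XTH4 and FLA8 were below 0 h at 5 h and at or slightly above it at 2 h. CESA3 and CESA6, cellulose synthase genes of the primary wall, fell by 0.35 ± 0.05 and 0.40 ± 0.05. The rises were EXPA10 (0.77 ± 0.06), TCH4 (0.56 ± 0.05), XTH24 (0.43 ± 0.06) and XTH16 (0.36 ± 0.05).

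Growth hormone genes moved in both directions. Among 25 auxin genes 13 rose and 10 fell (median 0.18, −0.24 to 0.18 over the alternatives). The conjugating enzyme genes GH3.2 and GH3.6 rose by 1.46 ± 0.05 and 1.31 ± 0.05. GH3.3 was the highest of the list, at 5.78 at 5 h and 4.67 at 2 h over 0 h, and rose by 1.12 ± 0.05, but its difference was −0.28 with equal spread. Carrier genes were among the falls: PIN7, an efflux carrier, had −2.50 and −2.6 at 5 h, against −1.03 and −0.95 at 2 h (−1.56 ± 0.06), AUX1, the influx carrier, had −1.21 and −1.2 at 5 h, against −0.20 and −0.31 at 2 h (−0.95 ± 0.06), and LAX3 and PIN3 fell by 0.59 ± 0.05 and 0.49 ± 0.05.

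Of 15 gibberellin genes 7 fell and 4 rose, beside 38.9% and 33.6% of all genes (median 0.09, −0.02 to 0.09 over the alternatives). The inactivating oxidase GA2OX7, high at 2 h, had 0.68 and 0.74 at 5 h, against 2.08 and 2.02 at 2 h (−1.35 ± 0.05), and GA2OX6 fell by 0.88 ± 0.05. The receptor genes GID1A and GID1C rose by 0.40 ± 0.05 and 0.44 ± 0.06. Of 14 cytokinin genes 5 rose and 5 fell, near the 33.6% and 38.9% of all genes (median −0.07, −0.10 to −0.02 over the alternatives), with the oxidase gene CKX4 at −0.28 and −0.19 at 5 h, against 0.92 and 1.05 at 2 h (−1.21 ± 0.06). Of 10 brassinosteroid genes 3 rose and 5 fell, beside the same shares of all genes (median −0.16, −0.24 to −0.06 over the alternatives). The synthesis gene BR6OX2 rose by 0.85 ± 0.06 and the receptor gene BRI1 fell by 0.63 ± 0.05. Of 13 genes of ribosome assembly in the nucleolus 5 rose and 3 fell, beside 33.6% and 38.9% of all genes (median 0.07, 0.00 to 0.16 over the alternatives). They ran from NRPA2, a subunit of RNA polymerase I, at 0.47 ± 0.05 above 2 h to FIB2, a fibrillarin gene, at 0.52 ± 0.06 below.

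Genes of the defence compounds and of the pigments mostly moved in different directions. Glucosinolate genes fell in 15 of 19 cases, 4 at least 2-fold, and rose in 1 (median −0.79). MYB34, a regulator of the indolic branch, had −0.52 and −0.52 at 5 h, against 0.83 and 0.83 at 2 h (−1.35 ± 0.05), CYP79F1, the entry enzyme of the aliphatic branch, had −1.16 and −1.16 at 5 h, against −0.05 and −0.07 at 2 h (−1.1 ± 0.05), and CYP83B1 of the indolic branch fell by 1.01 ± 0.06. MYB122 was the rise (0.66 ± 0.06), and the aliphatic regulators MYB29 and MYB76 were not called (−0.12 ± 0.05 and 0.06 ± 0.06), though MYB29 was under 4 of the alternatives and MYB76 under 2. Of 20 phenylpropanoid and flavonoid genes 12 rose and 5 fell (median 0.49, 0.31 with equal spread). F3H, an early flavonoid enzyme gene, had 0.99 and 1.07 at 5 h, against −0.08 and −0.18 at 2 h (1.16 ± 0.06), and the anthocyanin genes DFR and PAP1, a reductase and a MYB regulator, rose by 0.89 ± 0.05 and 0.84 ± 0.05. MYBL2, a repressor of that branch, rose most, by 1.46 ± 0.05. Among the 5 falls were PAL2 (−0.37), 4CL3 (−0.35) and PAL1 (−0.26). CHS, the first enzyme of the flavonoid branch, spread widely between replicates and was not called unless one of the 2 h arrays was left out, with −0.03 and −0.35 at 5 h, against 0.27 and −0.51 at 2 h.

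Nutrient genes went both ways. Of 13 nitrate and sulfate genes 7 rose, 5 at least 2-fold, and 3 fell (median 0.19, 0.11 by the Feature Extraction ratio and 0.08 by the deposited ratios). NRT1.8, which takes nitrate back from the xylem, had 3.63 and 3.69 at 5 h, against 2.3 and 2.00 at 2 h (1.51 ± 0.09), the sulfate reductase gene APR3 rose by 1.41 ± 0.06 and the nitrate reductase gene NIA2 by 1.16 ± 0.05. Of 16 iron and phosphate genes 8 fell and 3 rose (median −0.25, −0.85 to −0.17 over the alternatives). SPX3, a phosphate sensor gene, had −1.40 and −1.45 at 5 h, against 0.25 and 0.15 at 2 h (−1.63 ± 0.06), and MGD3 and SQD2, which replace phospholipids with other lipids, fell by 1.29 ± 0.05 and 1.21 ± 0.05. The ferritin genes parted, FER3 with 1.52 and 1.51 at 5 h, against 2.88 and 2.82 at 2 h (−1.33 ± 0.05) and FER1 higher by 0.63 ± 0.05, a call lost with equal spread. Of 14 hypoxia genes 6 rose and 5 fell, beside 33.6% and 38.9% of all genes. Their median was −0.04 (−0.28 to 0.06 over the alternatives, above 0 by the Feature Extraction and the deposited ratios and without replicate 1 of 2 h). ADH1 and SUS1, alcohol dehydrogenase and sucrose synthase, had 4.35 and 4.37 at 5 h, against 1.84 and 1.96 at 2 h for ADH1 and 4.50 and 4.59 at 5 h, against 2.1 and 2.13 at 2 h for SUS1, while the haemoglobin gene HB1 fell by 1.13 ± 0.05.

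All 14 of 14 morning clock genes were higher at 5 h than at 2 h, 7 at least 2-fold (median 0.99). CCA1, a core morning repressor, had 2.34 and 2.36 at 5 h, against −0.33 and −0.27 at 2 h (2.65 ± 0.05). LHY, its partner, had 1.93 and 1.89 at 5 h, against 0.00 and −0.06 at 2 h (1.94 ± 0.05), and RVE2 and RVE1 of the same MYB group rose by 2.23 ± 0.05 and 2.00 ± 0.05. CCA1 and LHY were thus well above 0 h at 5 h and at or just below it at 2 h. Of 11 evening clock genes 7 rose and 2 fell (median 0.25, −0.09 with equal spread): ELF4 had 2.59 and 2.6 at 5 h, against 0.79 and 0.64 at 2 h (1.88 ± 0.06) and CHE had −1.53 and −1.52 at 5 h, against −0.47 and −0.48 at 2 h (−1.05 ± 0.05). The hour of sampling was not given in the sources used here.

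Tissue markers and reference genes were read on the same scale. Of the 15 root markers, CASP1, of the Casparian strip, had −2.04 and −2.13 at 5 h, against −0.58 and −0.70 at 2 h (−1.44 ± 0.06), MYB36, its regulator, fell by 0.89 ± 0.05, and SCR, a factor of the ground tissue, rose by 0.48 ± 0.05, with 1 of its 2 probes the other way. EXPA7, an expansin of root hairs, was not well above background at 5 h and its Cy5 signal was at least 1.93-fold lower (difference of the log2 ratios −0.94 ± 0.05). At 5 h 10 of the 15 markers were well above background on both arrays, and at 2 h 14. Of 8 guard cell and stomatal markers 4 fell and 1 rose (median −0.14, −0.28 to −0.08 over the alternatives), MYB60, a promoter of stomatal opening, by 1.02 ± 0.08 downward and SLAC1, an anion channel of closure, by 0.45 ± 0.06 upward. Vascular markers fell in 4 of 5 cases, led by the secondary wall gene CESA4 (−0.27 ± 0.06, not called with Cy5 alone), and 1 rose. Epidermis, trichome and meristem markers were lower for 3 of 7 and higher for 1 (median −0.06, −0.12 to 0.06 over the alternatives). Of 4 reference genes PP2AA3 was not called (0.09 ± 0.05) and GAPC2 fell by 0.31 ± 0.06. UBQ10 rose by 0.82 ± 0.05, but its value was 0.00 with Cy5 alone, it was not called with equal spread, and 3 of its 11 probes went the other way.

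Families defined by words in the gene names, some of whose members are also on the lists, were counted for changes of at least 2-fold. The counts are to be read beside 4.33% higher and 3.43% lower over all genes. Of 48 families, those given here and in the next paragraph were picked by their results. Among families with at least 15 genes tested, they had the largest shares higher or lower. Their excess over all genes is thus what selected them, and they are no unselected survey. Late embryogenesis abundant proteins had 9 of 16 genes at least 2-fold higher and 0 lower (median 1.27), with LEA7 and LEA18 leading. UDP-glycosyltransferases, which attach sugars to hormones, defence compounds and toxins, had 19 of 48 at least 2-fold higher and 3 lower (median 0.75). UGT85A3 had 2.38 and 2.23 at 5 h, against −0.35 and −0.48 at 2 h (2.72 ± 0.07), and DOGT1, a glucosyltransferase of a fungal toxin and of brassinosteroids, had 3.48 and 3.53 at 5 h, against 0.91 and 0.85 at 2 h (2.63 ± 0.05). Proteins named for senescence or darkness had 11 of 30 higher and 0 lower. B-box zinc fingers, many of them light and clock regulators, had 6 of 27 higher and 0 lower, led by BBX32 (1.58 ± 0.05) and BBX30 (1.31 ± 0.05). Sugar transporters had 4 of 27 higher and 1 lower, SAG29 and SWEET4 leading.

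Cytochromes P450 went both ways, 24 of 167 at least 2-fold higher and 15 lower, which span CYP89A9, an enzyme of chlorophyll breakdown, with 2.66 and 2.67 at 5 h, against −0.08 and −0.02 at 2 h (2.71 ± 0.05), CYP76C2 (2.3 ± 0.05) and the fall of CYP82G1. Expansins had 7 of 26 at least 2-fold lower and 0 higher, led by EXPA8 and by the expansin-like peptide gene PNP-A, with 0.11 and 0.05 at 5 h, against 2.24 and 2.03 at 2 h (−2.06 ± 0.07). Histones had 4 of 18 lower and 1 higher, the H2A genes HTA11 and HTA8 falling by 1.76 ± 0.05 and 1.38 ± 0.05. Calcium-binding EF-hand proteins had 3 of 15 lower and 0 higher, which were CML39, TCH3 and CML38. Cyclins and kinesins had 15 of 80 lower and 1 higher, with HIK, a kinesin of cell plate formation, at −2.43 and −2.39 at 5 h, against −0.77 and −0.71 at 2 h (−1.67 ± 0.05) and CDKB1;2 (−1.52 ± 0.05). Pectin-modifying enzymes had 4 of 22 lower and 1 higher, the methylesterase genes PME5 and PME61 falling by 2.04 ± 0.05 and 1.54 ± 0.05. Glycosyl hydrolases had 8 of 46 lower and 4 higher, led by GH9C2 (−1.87 ± 0.05), for which 1 of 8 probes went the other way, and by BGLU35 (−1.58 ± 0.05).

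**Figure D5:**
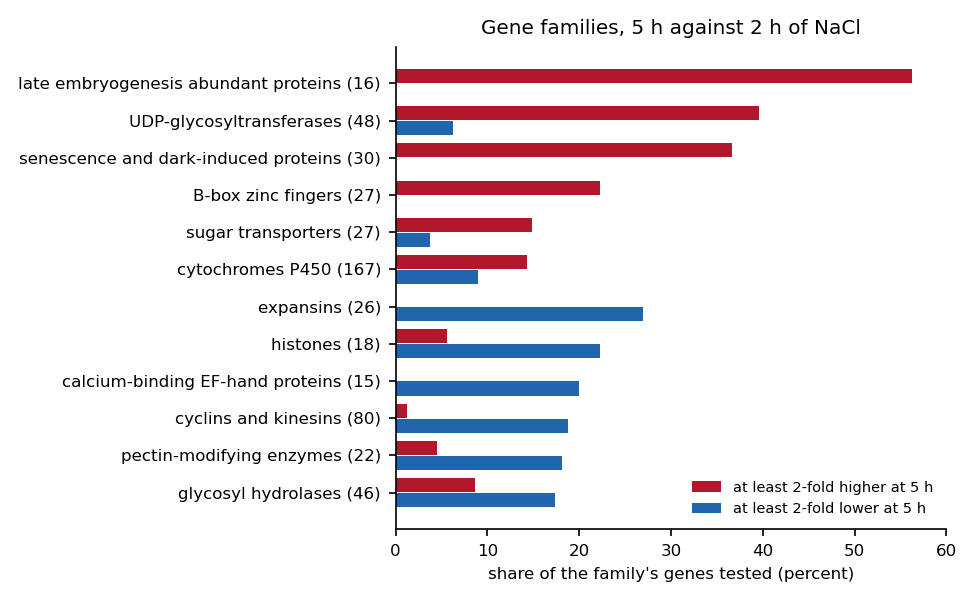
Share of each family's tested genes, in percent, that was called and at least 2-fold higher (red, upper bar) or lower (blue, lower bar) at 5 h than at 2 h, with the number tested in brackets. Over all genes these shares were 4.33% and 3.43%. The families described in the text beside these shares were picked for having the largest of them.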

How the data were processed

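Members of the comparison, gene lists and naming rule were chosen with earlier results of these data known. Each array file holds spot intensity values (median pixel brightness and median local background) as deposited by the authors, scanned and read with Feature Extraction 11.5.1.1 per the file headers, while the submitters' processing notes name version 9.3.2.1. The files also give a log10 ratio of Cy5 over Cy3 per spot, per the file headers, and the authors deposited a series table of log2 ratios whose basis is not given in the sources used here. That table correlated at r = 0.997 to 0.999 with each array's log10 ratio taken to log2, with a median shift of 0.0858 to 0.118, and its column medians were 0.0534 and 0.180 for 5 h and 0.143 and 0.141 for 2 h.

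Here, median signals (the files hold no mean signals) were corrected with normexp (offset 50) and loess within each array in limma 3.58.1 (R 4.3.3). Of 43603 probes, 34348 matched 1 gene of the RefSeq table (TAIR10.1, used for names only), and 32531 were kept, being well above background on both Cy5 arrays of one of the times or in at least 2 Cy3 channels. Each gene was read from its brightest kept probe: of 6084 genes with several, 840 had probes of opposite sign, 0 of them by 2-fold each. The 5 h minus 2 h difference was tested with lmFit and eBayes over 20410 genes (residual df 2, prior df 5.44, median SE 0.0541), with Benjamini-Hochberg adjustment. The number of arrays (2 per time) limits the precision. The p-values measure the spread between these samples.

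Counted as named were the 15 largest rises and falls, up to 3 called members of a list each way and the 5 largest bounds each way. The 5 leading called members of each of 12 families, picked by their shares of 2-fold changes, were added, which made 310 genes in all. A further 64 list members were chosen after their values were seen. Not all of these genes are given in the text. Of 756 list entries 745 matched a name and 731 were tested. The fit was tested on simulated data. Tables and plots used python 3.11.15, pandas 2.3.3 and matplotlib 3.10.9.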

Additional observations from a re-analysis of the deposited data

How the results depend on the processing

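The comparison was repeated under 16 alternatives. Making the spread of the ratios equal between arrays moved the split most: 562 of its 612 genes at least 2-fold higher and 457 of its 813 lower were shared with the values reported. The genes at least 2-fold lower numbered 1343 by the Feature Extraction ratio, beside 1225 higher (47.7% rises), and 1432 by the deposited log2 table. Leaving out each array in turn gave 6102 to 6620 genes higher, 7139 to 7691 lower, 883 to 908 at least 2-fold higher and 680 to 734 at least 2-fold lower. The labels number the replicates without saying that a number marks a batch, and same-numbered arrays deviated together only weakly (r = 0.0591 over genes, 2 pairs), so the pairing was not used. With the replicate number as a block 6945 genes were higher and 8074 lower, 884 and 702 of them at least 2-fold. The median of all genes lay between −0.053 and −0.0195.

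Of 374 named genes 326 kept their side and direction throughout, and of 50 lists 40 kept the sign of their median. Under at least 1 alternative 42 lists had their median moved by over 1.5 times, 31 of them with equal spread, which moved 126 named genes as far. With the spread made equal the median turned to −0.62 for ABA-linked factors, −0.11 for aquaporins, −0.0589 for sugar transport, −0.24 for auxin, −0.0865 for the evening clock and 0.0576 for epidermis markers. Chlorophyll synthesis and gibberellin also changed sign there, to 0.0183 and −0.0203, both smaller than the SD of the list median between arrays. In that setting the value was −0.39 for CIPK9, −1.19 for MAPKKK18, −0.10 for BIP3, −1.07 for RAP2.6, −0.33 for MKK9, −0.28 for GH3.3, −0.37 for NCED3, −0.62 for ERF1, −0.23 for BAM1, 0.0625 for KNAT1, 0.11 for SESA1, −0.58 for ST2A and −0.51 for CYP707A3. With median centring aquaporins turned to −0.0459 and GAPA to −0.11, and with Cy5 alone aquaporins to −0.05, GAPA to −0.0838 and UBQ10 to 0.0. Hypoxia turned to 0.0557 by the Feature Extraction ratio and LOX2 to −0.0131 with the mean of its probes. Other sign changes of list medians were smaller than the SD between arrays and are not given here. The cause was not tested. Aquantile leaves ratios as they are by construction. The replicate block, and a variance allowed to follow signal intensity, change the calls but not the differences of genes measured on all arrays. None of these settings could therefore turn the sign of such a gene. A slide block was not run, since 1 slide held all arrays, nor was the promoter motif comparison, for which no sequences were at hand. Signal over background limits the genes given as bounds.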

Other observations

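Some groups moved by small amounts in many members. Ribosomal protein genes, which build the cell's translation machinery, fell in 48 of 66 cases and rose in 6, with a median difference of −0.28 and 0 falls of at least 2-fold. Proteasome subunit genes, which encode the main protease of the cytosol and nucleus, were lower for 18 of 30 and higher for 3, with a median of −0.19 and 0 past 2-fold either way. Receptor-like kinase genes, which sense signals at the cell surface, fell in 61 of 112 cases and rose in 22, and 7 fell and 2 rose by at least 2-fold. Of 79 NAC factors 33 were higher, 9 of them at least 2-fold, and 19 were lower, where all genes had 33.6% higher and 38.9% lower.

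Of 4224 kept probes that matched no single gene of the table, 99 were at least 2-fold higher at 5 h and 76 lower, and these have no name here. In the 0 h channel alone, 3 genes differed by at least 2-fold between the arrays of the 2 times, and that channel made up at least 50% of the change in 2 of the 1585 genes called at 2-fold.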
